A study of Mus musculus with 64 samples.

Results

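The NRF2 oxidative stress response was followed through 10 of the 25239 genes of the batch-corrected count table: the transcription factor gene Nfe2l2, which encodes NRF2, and 9 of its textbook targets, Hmox1, Slc7a11, Gclc, Gclm, Nqo1, Txnrd1, Srxn1, Prdx1 and Sqstm1. They were found by symbol, with no threshold on a measured value. The study asked how retinal microglia respond to an adeno-associated virus vector injected into the eye, and whether the response changes with age and sex. Microglia came from the retinas of Cx3cr1CreER:R26-tdTomato +/- mice, of C57BL/6J background, in which tamoxifen eye drops switch on the red fluorescent protein tdTomato in cells that use the Cx3cr1 promoter, with a washout of at least 4 weeks before use. Naive eyes received no injection, and the other eyes were taken 12 or 28 days after an intravitreal dose of 1e10 genome copies of AAV2 that carried no transgene. By the study's methods this vector held a sequence that inhibits TLR9, a sensor of viral DNA. Mice were 3, 9 or 18 months old, of both sexes, all with the same reporter and tamoxifen treatment.

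From each retina 600 living cells with high tdTomato were sorted and amplified with the SMART-Seq v4 kit, so each library is a pool of cells from 1 eye, and a gene whose product fell in every cell cannot be told apart from a smaller share of the cells that make it. In all, 62 libraries were compared, in 18 groups of age, sex and day with 2 to 4 libraries each: 19 naive, 22 at day 12 and 21 at day 28. Retinas were collected on 2 days, 27 libraries on the first and 35 on the second. No library came from a vehicle-injected eye, so in these libraries the vector and the injection itself cannot be told apart.

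NRF2 is held in the cytoplasm by KEAP1, which hands it to a ubiquitin ligase for destruction. Oxidants and electrophiles modify KEAP1, NRF2 then enters the nucleus with a small MAF protein and binds antioxidant response elements in front of genes for haem breakdown, glutathione synthesis, thioredoxin recycling and quinone reduction. Much of this control acts on the NRF2 protein, so the Nfe2l2 transcript need not follow its activity. In microglia and other macrophages these genes are known to counter the oxidants made during inflammation.

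The core of the antioxidant response element is TGACNNNGC, and a related motif bound by AP-1 and BACH proteins contains TGANTCA. Both were searched on both strands of the RefSeq promoter windows, 300 bases from 250 before to 50 after each start on GRCm38.p6. Of all 32851 windows, 12.4% held TGACNNNGC, 7.81% held TGANTCA and 19.0% held either. The table held 8 of the 10 members with 10 windows, and 5 windows of 5 members held a match. The stretches before the start sites are shown because they hold either motif, with the match in capitals and 9 flanking bases on each side.
Nfe2l2: cagcccaccTGACTCCGCcatgccccg
Gclm: ctcccgggcGCACCGTCAactctcacg
Txnrd1: tggatttttGCTTTGTCAttctgacac
Prdx1, first match: acgaggaaaTGACTCAaagggcagt
Prdx1, second match: agggaaagcGCTGAGTCAtcccccgta
Srxn1, first match: cggagggccTGAGTCAccacgctgt
Srxn1, second match: aattcacccTGAGTCAgcggccggg
In gene direction the Nfe2l2 stretch lies at chr2:75704886-75704912 with its match starting 240 bases before the start. The Gclm stretch lies at chr3:122245414-122245440, 134 bases before it, and the Txnrd1 stretch at chr10:82859105-82859131, 92 bases before 1 of the 3 starts listed. For Prdx1 they lie at chr4:116685353-116685377 and chr4:116685457-116685483, 237 and 133 bases before the start. For Srxn1 they lie at chr2:152105413-152105437 and chr2:152105470-152105494, 102 and 45 bases before it. The Gclm, Txnrd1 and second Prdx1 matches are to TGACNNNGC on the opposite strand and read as its reverse complement. The second Prdx1 match also overlaps a TGANTCA match. The windows of Slc7a11, Nqo1 and Sqstm1 held neither motif, which says only that these letters are not in those windows. Srxn1 also held TGACNNNGC after its start, which is not shown. Of the 5 members with TGACNNNGC in the window, Nfe2l2 and Prdx1 rose at day 12, while Gclm, Txnrd1 and Srxn1 did not pass the test. Hmox1 and Gclc are named only.

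The libraries held 1468478 to 9836173 counts after the authors' batch correction, with a median of 4188992, so 3 counts corresponded to 0.305 to 2.04 CPM, the count per library total scaled to 1e6. The labelled microglia were checked with 9 markers, whose summed level lay between 30946 and 52708 CPM in naive libraries and between 14335 and 34462 CPM at day 12. Of these 9 markers 8 were lower and 1 was higher at day 12, each past the test. Transcripts of other cells moved with the day as well. All 6 T cell markers were higher at day 12, with a median sum of 0.76 CPM in naive and 96.6 CPM in day 12 libraries. All 4 monocyte markers tested were higher, from a median sum of 13.8 CPM (range 0.226 to 117) to 60.9 CPM (range 4.66 to 954). Of 5 border macrophage markers 4 were lower, and the median sum fell from 168 to 5.36 CPM. All 6 photoreceptor markers were lower. By the sex-linked genes, 2 of 64 libraries went against their sex label: 9-month-old male day 28 replicate 1 is outside the corrected table, and 18-month-old female day 28 replicate 1 was left out. At day 12, 3 libraries stood apart with more microglia markers than the others of their group: 9-month-old male replicate 2 at 30705 CPM and 18-month-old female replicates 1 and 2 at 34462 and 29658 CPM. The 18-month-old female naive replicate 1 was the least like its group of all libraries, with correlations of log2 values of 0.760 and 0.759 with the other eyes. Another, 18-month-old male day 28 replicate 4, carries both a day 28 and a day 12 label and was kept at day 28.

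All 10 members passed the filter on low counts, but they spanned a wide range of levels. Per kilobase of annotated exon, Nfe2l2 had a median level of 115.5 CPM in naive libraries and Prdx1 113.8 CPM. Sqstm1 followed with 38.4 CPM, Hmox1 with 10.9 CPM, Gclc with 7.37 CPM and Txnrd1 with 3.38 CPM. Gclm at 2.06 CPM, Srxn1 at 1.12 CPM and Slc7a11 at 0.155 CPM were low, and the median of Nqo1 was 0. The ranges of Nfe2l2 and Prdx1 overlapped in naive libraries. At day 12 the order of the first pair was exchanged, with 240.5 CPM per kilobase for Prdx1 and 164.5 CPM for Nfe2l2. Hmox1 stood at 29.5 CPM per kilobase at day 12 and Gclc at 4.82 CPM. Nqo1 had more than 3 counts in 17 of 62 libraries and Slc7a11 in 29 of 62, so these genes sat close to the limit of detection.

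At day 12, 3 members were higher and 1 was lower than in naive microglia, among all genes tested 20.1% higher and 15.8% lower (edgeR quasi-likelihood test, adjusted p under 0.05 over 13584 genes). Hmox1 rose 2.88-fold, Prdx1 rose 2.19-fold and Nfe2l2 rose 1.52-fold, while Gclc fell to 0.636 of its naive level. The median log2 fold change was 0.22 over the 9 members with enough counts for one, beside 0.02 over all genes tested. At day 28 the same 3 members, Hmox1, Prdx1 and Nfe2l2, were still higher than naive and all 3 were lower than at day 12.

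**Figure D1:**
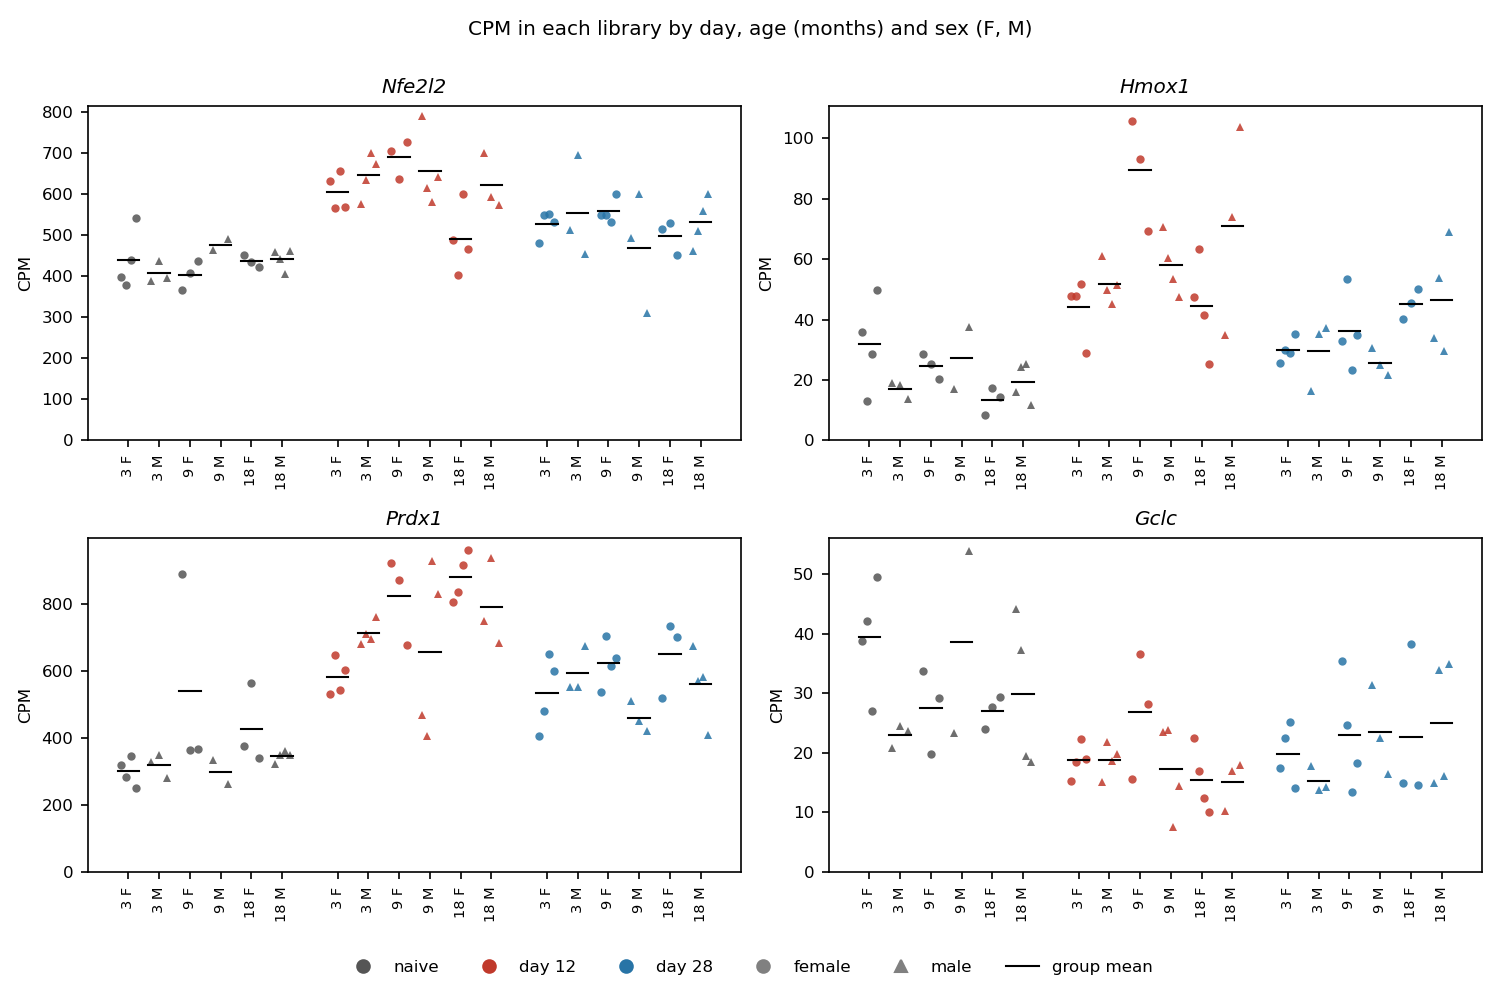
CPM of Nfe2l2, Hmox1, Prdx1 and Gclc in each of the 62 libraries (1 point each), on linear axes from 0, by day (colour), age in months and sex (circles female, triangles male), with the mean of each group as a line. Prdx1 at day 12 lay above every naive library of the same age and sex in 5 of 6 groups, as 3.29% to 13.5% of all genes did in the single groups, and 1 naive library of 9-month-old females stood at 891 CPM.

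Nfe2l2 lies at chr2:75675513-75704641 on the minus strand (GRCm38). In naive libraries it ranged from 366 to 542 CPM with a median of 438 CPM, the highest median of the 10. At day 12 it ranged from 403 to 792 CPM with a median of 624 CPM, and at day 28 from 312 to 695 CPM with a median of 532 CPM. In 5 of the 6 groups of age and sex every day 12 library lay above every naive library, a pattern that 3.29% to 13.5% of all genes showed in the single groups. The exception was 18-month-old females, whose day 12 libraries stood at 490, 403, 602 and 467 CPM against 453, 436 and 422 CPM in naive ones. The share of all genes with such a separation in several groups at once is not given here, for this or the other members. The mean log2 fold change was 0.60 (SE 0.08, adjusted p = 1.57e-08, edgeR) at day 12 and 0.37 (SE 0.08, adjusted p = 0.000651, edgeR) at day 28. Between day 12 and day 28 it fell by 0.23 on the log2 scale (SE 0.08, adjusted p = 0.0291, edgeR). That last call was lost within either collection day (adjusted p = 0.181 and 0.245, edgeR), with no filter on low counts (adjusted p = 0.224, edgeR) and without any of 5 single libraries, which were 9-month-old female replicate 1, 18-month-old female replicate 3 and 18-month-old male replicate 1 of day 12 and 3-month-old male replicate 3 and 9-month-old male replicate 4 of day 28 (adjusted p up to 0.0649, edgeR).

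Hmox1 (chr8:75093621-75100589, plus strand) encodes haem oxygenase 1, which breaks haem down to biliverdin, carbon monoxide and iron. It had the largest rise of the 9 members with enough counts for a fold change. In naive libraries it ranged from 8.28 to 49.9 CPM with a median of 19.0 CPM, at day 12 from 25.1 to 106 CPM with a median of 51.7 CPM, and at day 28 from 16.3 to 69.1 CPM with a median of 33.8 CPM. Day 12 libraries lay above all naive libraries in 5 of 6 groups, beside the same 3.29% to 13.5% of all genes. Day 28 libraries did so in 2 of 6, beside 3.13% to 10.4% of all genes in the single groups.

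The single eyes showed where the overlap lay. In 3-month-old females the naive eyes held 35.9, 12.9, 28.5 and 49.9 CPM of Hmox1, the day 12 eyes 47.9, 47.7, 51.9 and 29.0 CPM and the day 28 eyes 25.7, 29.9, 29.0 and 35.2 CPM. In 9-month-old females they held 28.6, 25.3 and 20.2 CPM, then 106, 93.1 and 69.4 CPM, then 32.9, 53.5, 23.4 and 35 CPM. In 18-month-old females they held 8.28, 17.4 and 14.2 CPM, then 47.5, 63.3, 41.5 and 25.1 CPM, then 40.1, 45.4 and 50.1 CPM. The youngest females thus had overlapping naive and day 12 values, and in the oldest females both injected groups lay above all naive eyes. In males the naive eyes held 19.0, 18.4 and 13.8 CPM at 3 months, 17.0 and 37.4 CPM at 9 months and 15.8, 24.3, 25.2 and 11.7 CPM at 18 months. Their day 12 eyes held 61.0, 49.8, 45.2 and 51.5 CPM at 3 months, 70.6, 60.3, 53.4 and 47.4 CPM at 9 months and 34.8, 74.0 and 104 CPM at 18 months. At day 28 they held 16.3, 35.1 and 37.3 CPM, then 30.6, 24.9 and 21.7 CPM, then 33.8, 53.8, 29.5 and 69.1 CPM. Every male day 12 eye exceeded all naive eyes of its age.

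Hmox1 rose by a mean log2 fold change of 1.52 at day 12 (SE 0.15, adjusted p = 1.38e-12, edgeR). At day 28 it was 0.81 above naive (SE 0.15, adjusted p = 4.34e-05, edgeR), and it fell by 0.72 from day 12 (SE 0.14, adjusted p = 0.000117, edgeR). Within the first collection day the day 12 value was 1.77 and within the second 1.34, both past the test. The monocyte marker sum rose with it, and monocytes are known to use Hmox1. In 9-month-old male day 12 replicate 2 that sum was 6.09 CPM, while the other eyes of the group had 98.9, 94.3 and 51.1 CPM. Hmox1 stood at 60.3 CPM in that eye, inside the range of the others. In those it was 70.6, 53.4 and 47.4 CPM, in the same order as their sums. In 18-month-old females at day 12 the sum was 10.7, 7.22, 152 and 954 CPM in replicates 1 to 4, and Hmox1 was highest in the eye with 7.22 CPM and lowest in that with 954 CPM. The eyes with low sums here are those that stood apart with more microglia markers. In 18-month-old females the eyes with low and with high sums also came from different collection days. The part of other cells in the change over all groups was not tested.

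**Figure D2:**
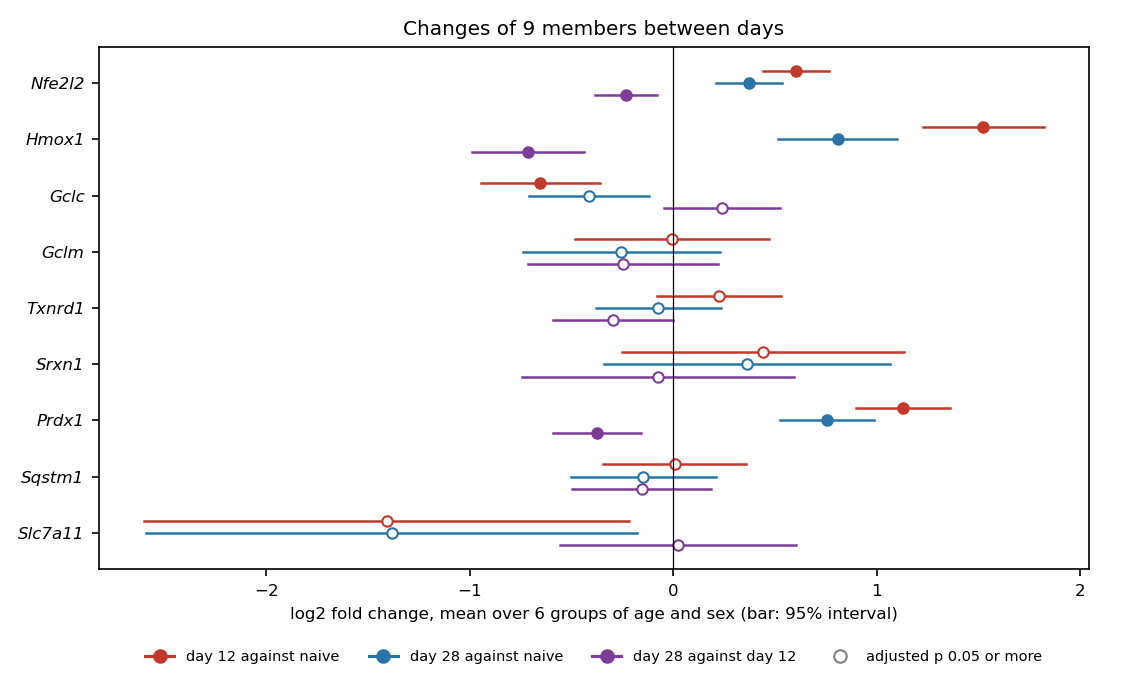
Log2 fold change (horizontal axis) of 9 members for day 12 against naive, day 28 against naive and day 28 against day 12, as means over 6 groups of age and sex with 95% intervals; filled points passed an adjusted p of 0.05 (edgeR). Hmox1, Prdx1 and Nfe2l2 lie to the right of 0 in both comparisons with naive, and Gclc lies to the left. Gclm, Txnrd1, Srxn1 and Sqstm1 have intervals across 0 for both.

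Among the members for glutathione synthesis, Gclc fell, and Gclm and Slc7a11 did not pass the test. Gclc (chr9:77754535-77794485, plus strand) encodes the catalytic subunit of glutamate-cysteine ligase, the first step of glutathione synthesis. It ranged from 18.5 to 53.8 CPM in naive libraries with a median of 27.8 CPM, from 7.63 to 36.5 CPM at day 12 with a median of 18.1 CPM, and from 13.5 to 38.2 CPM at day 28 with a median of 17.7 CPM. The group means were below naive in all 6 groups at both days. Day 12 libraries lay wholly below naive ones in 3 of 6 groups, where 6.43% to 14.3% of all genes did so in the single groups. The mean log2 fold change was -0.65 at day 12 (SE 0.15, adjusted p = 0.000345, edgeR). At day 28 it was -0.41 (SE 0.15, adjusted p = 0.0524, edgeR), which did not pass. It passed without any of 12 single libraries, with an adjusted p down to 0.0123 (edgeR) without 18-month-old female day 28 replicate 3. The others were day 28 replicates 3 of 3-month-old females, 1 of 9-month-old females, 2 of 9-month-old males and 2 and 4 of 18-month-old males, and naive replicates 3 of 3-month-old females, 2 of 9-month-old females, 1 of 9-month-old males, 1 of 18-month-old females and 3 and 4 of 18-month-old males. The naive level itself varied, with 53.8 CPM in 9-month-old male replicate 2 against 23.3 CPM in replicate 1.

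Gclm (chr3:122245557-122270732, plus strand) encodes the modifier subunit of the same ligase and did not follow Gclc. It ranged from 6.77 to 28.4 CPM in naive libraries, from 0 to 34.8 CPM at day 12 and from 3.11 to 22.6 CPM at day 28, with medians of 12.9, 11.6 and 10.6 CPM. The log2 fold change was -0.01 at day 12 (SE 0.24) and -0.25 at day 28 (SE 0.25), with adjusted p = 1 and 0.594 (edgeR). The 95% interval at day 12 ran from -0.49 to 0.47. The 0 was 3-month-old male day 12 replicate 2, where 3 counts would be 0.945 CPM and where the other eyes of the group held 14.0, 11.6 and 15.4 CPM.

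Slc7a11 (chr3:49892526-50443614, minus strand) encodes the cystine importer xCT, which feeds the same pathway. More than 3 counts were found in 12 of 19 naive libraries, 9 of 22 at day 12 and 8 of 21 at day 28, with highest values of 12.0, 24.5 and 7.42 CPM. The log2 fold change was -1.41 at day 12 (SE 0.61, adjusted p = 0.0634, edgeR) and did not pass. It passed without any of 6 single libraries (adjusted p between 0.0341 and 0.0492, edgeR): naive replicates 1 of 9-month-old females, 1 of 9-month-old males and 4 of 18-month-old males, and day 12 replicates 1 of 3-month-old males, 4 of 9-month-old males and 1 of 18-month-old males. At day 28 the value was -1.38 (SE 0.62, adjusted p = 0.129, edgeR), and it passed without 3-month-old male replicate 1 or 9-month-old female replicate 4 of day 28 (adjusted p = 0.0358 and 0.018, edgeR). All 4 day 12 eyes of 9-month-old males were under 3 counts, at 0, 0, 0 and 0.414 CPM, whereas the naive pair held 1.26 and 10.3 CPM. Day 12 eyes of 18-month-old females held 13.4, 24.5, 9.97 and 2.73 CPM, and their naive eyes 1.74, 12.0 and 3.55 CPM, so the groups overlapped. Mean levels over all libraries were close, at 3.34 CPM in naive and 3.02 CPM at day 12. Each group weighs equally in the log2 fold change, also those near the floor.

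The thioredoxin branch held the second strong riser. Prdx1 (chr4:116685544-116700822, plus strand) encodes peroxiredoxin 1, which reduces hydrogen peroxide and is recharged by thioredoxin. Its naive range was 251 to 891 CPM with a median of 346 CPM, its day 12 range 406 to 964 CPM with a median of 732 CPM, and its day 28 range 406 to 737 CPM with a median of 572 CPM. The highest naive value, 891 CPM, was 9-month-old female replicate 1, and the next in that group were 365 and 369 CPM. The mouse genome holds a Prdx1 pseudogene, and whether it shared reads was not tested.

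By eye, the day 12 values of Prdx1 were 533, 650, 545 and 603 CPM in 3-month-old females against 321, 285, 346 and 251 CPM in naive ones. In 9-month-old males they were 468, 406, 930 and 831 CPM against 335 and 265 CPM. In 18-month-old females they were 808, 837, 917 and 964 CPM against 377, 564 and 341 CPM. The lowest day 12 eye of all, 406 CPM, was the replicate 2 of 9-month-old males that stood apart in its microglia markers, and it still lay above both naive eyes. In 3-month-old males the day 12 eyes held 680, 712, 697 and 763 CPM against 330, 350 and 280 CPM. In 18-month-old males they held 751, 938 and 683 CPM against 322, 351, 361 and 351 CPM. Only in 9-month-old females, with 924, 874 and 678 CPM at day 12, did naive and day 12 eyes overlap. The mean log2 fold change was 1.13 at day 12 (SE 0.12, adjusted p = 6.79e-12, edgeR) and 0.76 at day 28 (SE 0.12, adjusted p = 1.54e-06, edgeR). Between these days it fell by 0.37 (SE 0.11, adjusted p = 0.0118, edgeR). Within the first collection day alone the day 28 value against naive was 0.48 (adjusted p = 0.0898, edgeR), and within the second it was 0.93 (adjusted p = 1.7e-06, edgeR).

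Txnrd1 (chr10:82833951-82897712, plus strand) encodes cytosolic thioredoxin reductase, which returns thioredoxin to its reduced state. It had medians of 23.9, 26.0 and 23.5 CPM in naive, day 12 and day 28 libraries, with ranges of 13.2 to 63.9, 6.78 to 58.7 and 10.6 to 44.0 CPM. The log2 fold change was 0.22 at day 12 (SE 0.16, adjusted p = 0.278, edgeR) and -0.07 at day 28 (SE 0.16, adjusted p = 0.871, edgeR). The 95% interval at day 12 ran from -0.08 to 0.53, which leaves out a rise as large as that of Prdx1.

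Srxn1 (chr2:152105516-152111376, plus strand) encodes sulfiredoxin, which rescues over-oxidised peroxiredoxins. Its medians were 3.17, 6.32 and 5.39 CPM, but single eyes reached 37.5 CPM in naive, 43.8 CPM at day 12 and 27.1 CPM at day 28. The log2 fold change was 0.44 at day 12 (SE 0.35, adjusted p = 0.364, edgeR) and 0.36 at day 28 (SE 0.36, adjusted p = 0.603, edgeR). The result differed between collection days, with a log2 fold change at day 12 of 2.08 within the first and 0.53 within the second. Within the first, the only naive eye of 18-month-old females held 0 CPM, against 43.8 and 22.8 CPM at day 12. Mean levels went from 5.77 CPM in naive to 11.6 CPM in day 12 libraries within the first collection day. Within the second they went from 7.58 to 6.40 CPM. The difference between collection days was itself not tested.

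Nqo1 (chr8:107388225-107403206, minus strand) encodes a quinone reductase often used as a readout of NRF2. It was at 0 in 14 of 19 naive, 7 of 22 day 12 and 13 of 21 day 28 libraries. Its highest naive value was 7.39 CPM, again 9-month-old female replicate 1, and the next was 1.68 CPM. At day 12 it reached 5.91 CPM in 3-month-old female replicate 2, and in 18-month-old females it stood at 3.74, 3.61, 1.35 and 1.09 CPM against 0 in all 3 naive eyes. Several groups were at 0 throughout, so no fold change is given. In 9-month-old females, where the other 2 naive eyes and all 3 day 12 eyes were at 0, it was called lower at day 12 with no filter (adjusted p = 0.0499, edgeR) and from uncorrected counts with a collection day term (adjusted p = 0.0464, edgeR), but not otherwise.

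Sqstm1 (chr11:50199366-50210827, minus strand) encodes p62, an autophagy receptor that also binds KEAP1. Its medians hardly differed, at 129, 131 and 126 CPM, and its ranges were 86.5 to 480, 62.9 to 436 and 83.8 to 255 CPM. The log2 fold change was 0.01 at day 12 (SE 0.18, adjusted p = 1, edgeR) and -0.15 at day 28 (SE 0.18, adjusted p = 0.702, edgeR). The spread came from a few eyes that stood above the rest of their group. In naive eyes these were 304 CPM in 3-month-old female replicate 4, 367 CPM in 9-month-old female replicate 1 and 480 CPM in 9-month-old male replicate 2.

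**Figure D3:**
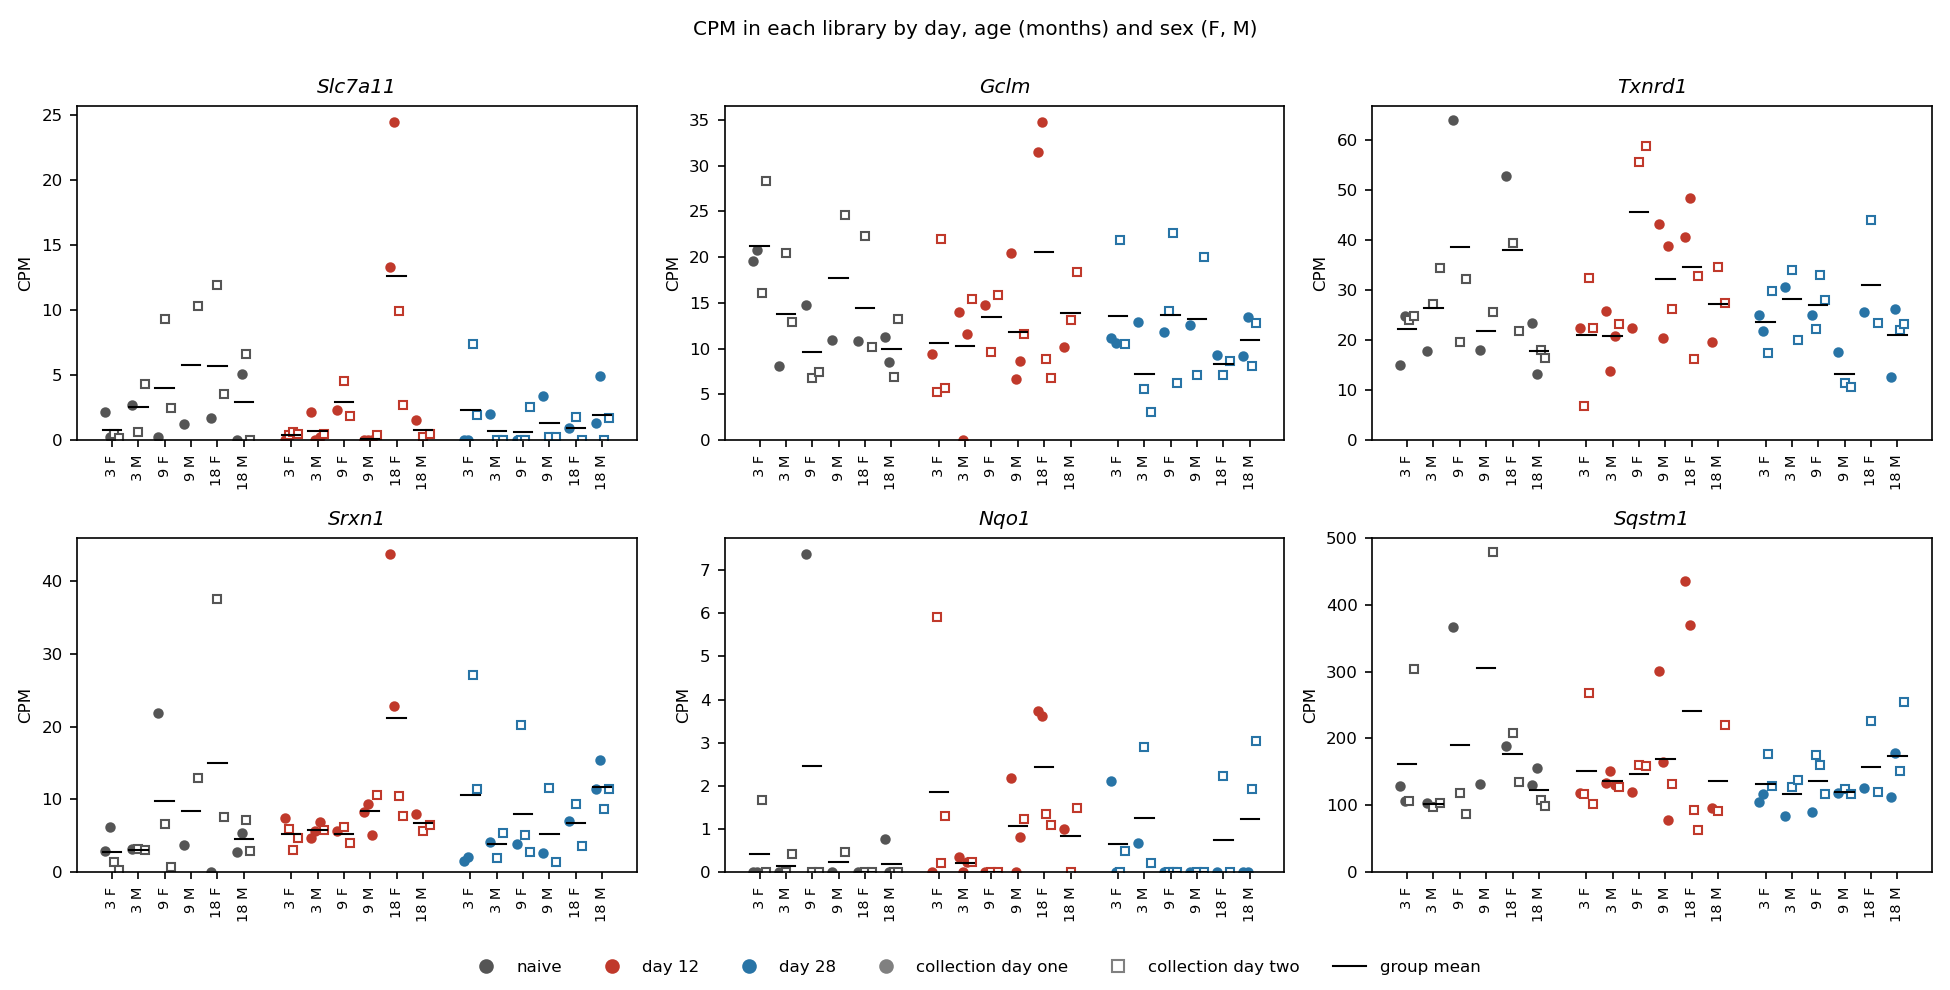
CPM of Slc7a11, Gclm, Txnrd1, Srxn1, Nqo1 and Sqstm1 in each library on linear axes from 0, by day (colour), age and sex, with filled circles for the first and open squares for the second collection day and a line at each group mean. In 18-month-old females at day 12 the 2 libraries of the first collection day stand above the 2 of the second for all 6 genes, with Sqstm1 at 436 and 370 CPM against 93.2 and 62.9 CPM.

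In 18-month-old females at day 12 the eyes divided by collection day. Replicates 1 and 2, of the first day, had 31.5 and 34.8 CPM of Gclm against 8.89 and 6.83 CPM in replicates 3 and 4, of the second. Srxn1 stood at 43.8 and 22.8 CPM against 10.5 and 7.65 CPM, and Sqstm1 at 436 and 370 CPM against 93.2 and 62.9 CPM. Hmox1 at 47.5 and 63.3 CPM against 41.5 and 25.1 CPM and Gclc at 22.4 and 16.9 CPM against 12.4 and 10.1 CPM followed the same order. Prdx1 did not, at 808 and 837 CPM against 917 and 964 CPM. The same division was present before batch correction, with 702 and 615 CPM of Sqstm1 against 58.7 and 37.6 CPM and 62.1 and 85.4 CPM of Hmox1 against 30.1 and 16.7 CPM. The T cell marker sum was 0 and 13.1 CPM in replicates 1 and 2 and 289 and 171 CPM in replicates 3 and 4, and its part was not tested. The eye and the collection day cannot be told apart here.

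The 9-month-old female naive replicate 1 was high for several members at once. It held 63.9 CPM of Txnrd1 against 19.5 and 32.2 CPM in the other eyes of its group, 21.9 CPM of Srxn1 against 6.58 and 0.748 CPM and 367 CPM of Sqstm1 against 119 and 86.5 CPM. Its Nfe2l2 was the lowest of all naive libraries at 366 CPM, and its Hmox1 at 28.6 CPM was close to the others. With this eye and the first 2 day 12 eyes of 18-month-old females left out, the day 12 log2 fold change was 1.26 for Prdx1, 1.5 for Hmox1, 0.64 for Nfe2l2 and -0.67 for Gclc, all 4 past the test.

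Across the 62 libraries the members did not move as 1 block. After the group means were removed, the highest correlation of log2 CPM between members was 0.51 for Hmox1 with Sqstm1, followed by 0.48 for Gclc with Sqstm1 and 0.40 for Gclm with Txnrd1. Nfe2l2 correlated with Hmox1 at 0.64 over all libraries and at 0.07 within groups, and with Prdx1 at 0.62 and 0.16. Gclc and Prdx1 correlated at -0.58 over all libraries and at -0.29 within groups. These are descriptions over 62 libraries that differ in collection day and depth.

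Among all genes tested, the gene most like Nfe2l2 over the 62 libraries was Il2rg, the common cytokine receptor gamma chain (Pearson r of 0.85). The genes most like Hmox1 were Apobec1 (0.86), Ctsb (0.83), Sdcbp (0.82), Aoah (0.81) and Gyg (0.81), of which Ctsb encodes the lysosomal protease cathepsin B. Prdx1 was most like Fth1, the ferritin heavy chain, at 0.92, and Sqstm1 most like Atp6ap1, a subunit of the lysosomal proton pump, at 0.80. The closest genes to Gclc (Tmem135, 0.69), Gclm (Lrrfip2, 0.67), Srxn1 (Lilr4b, 0.61), Txnrd1 (Calr, 0.58), Slc7a11 (Mmp12, 0.53) and Nqo1 (A330074K22Rik, 0.44) were less like them.

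Within the single groups of age and sex, 13 of 60 tests of members at day 12 passed, all of them rises of Nfe2l2, Hmox1 or Prdx1. The members higher numbered 2 in 3-month-old females (4.29% of all genes tested), 3 in 3-month-old males (4.01%), 2 in 9-month-old females (5.96%), 1 in 9-month-old males (2.46%), 2 in 18-month-old females (1.98%) and 3 in 18-month-old males (5.41%). Hmox1 rose by a log2 fold change of 1.67 in 3-month-old males, 1.85 in 9-month-old females, 1.88 in 18-month-old females and 1.95 in 18-month-old males, with adjusted p between 5.75e-05 and 0.00218 (edgeR). In 3-month-old females it was 0.60 (SE 0.32, adjusted p = 0.282, edgeR) and in 9-month-old males 1.19 (SE 0.41, adjusted p = 0.0868, edgeR). Prdx1 rose in every group but 9-month-old females, by 1.09 to 1.33. In that group the value was 0.61 (SE 0.29, adjusted p = 0.181, edgeR), and without its naive replicate 1 it was 1.13 (adjusted p = 0.0194, edgeR). Nfe2l2 rose by 0.60 in 3-month-old females, 0.76 in 3-month-old males, 0.72 in 9-month-old females and 0.63 in 18-month-old males, with adjusted p between 0.00947 and 0.0285 (edgeR). Its values were 0.56 in 9-month-old males and 0.36 in 18-month-old females (adjusted p = 0.157 and 0.32, edgeR). In 9-month-old males DESeq2 also called Hmox1 (1.23, adjusted p = 0.0282, DESeq2) and Nfe2l2 (0.60, adjusted p = 0.0246, DESeq2). In 3-month-old females it called Gclc lower (-0.93, adjusted p = 0.0469, DESeq2). The 4 calls of Hmox1 and those of Prdx1 in 3-month-old and 18-month-old males and 3-month-old females held without any single library. The 18-month-old female call of Prdx1 was lost without naive replicate 1, and the 9-month-old male call without either naive eye or without day 12 replicate 3 or 4. Those of Nfe2l2 were lost in 3-month-old females without naive replicate 1 or 2 or day 12 replicate 1 or 4, and in 3-month-old males without naive replicate 3. They were also lost in 9-month-old females without naive or day 12 replicate 1, and in 18-month-old males without naive replicate 2 or 3 or day 12 replicate 1 or 2. When only the groups compared were fitted, the calls of Hmox1 (adjusted p = 0.212, edgeR) and Prdx1 (adjusted p = 0.237, edgeR) in 18-month-old females, Prdx1 in 9-month-old males (adjusted p = 0.176, edgeR) and Nfe2l2 in 9-month-old females (adjusted p = 0.0753, edgeR) were lost, and Gclc in 3-month-old females passed at -0.94 (adjusted p = 0.0287, edgeR).

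**Figure D4:**
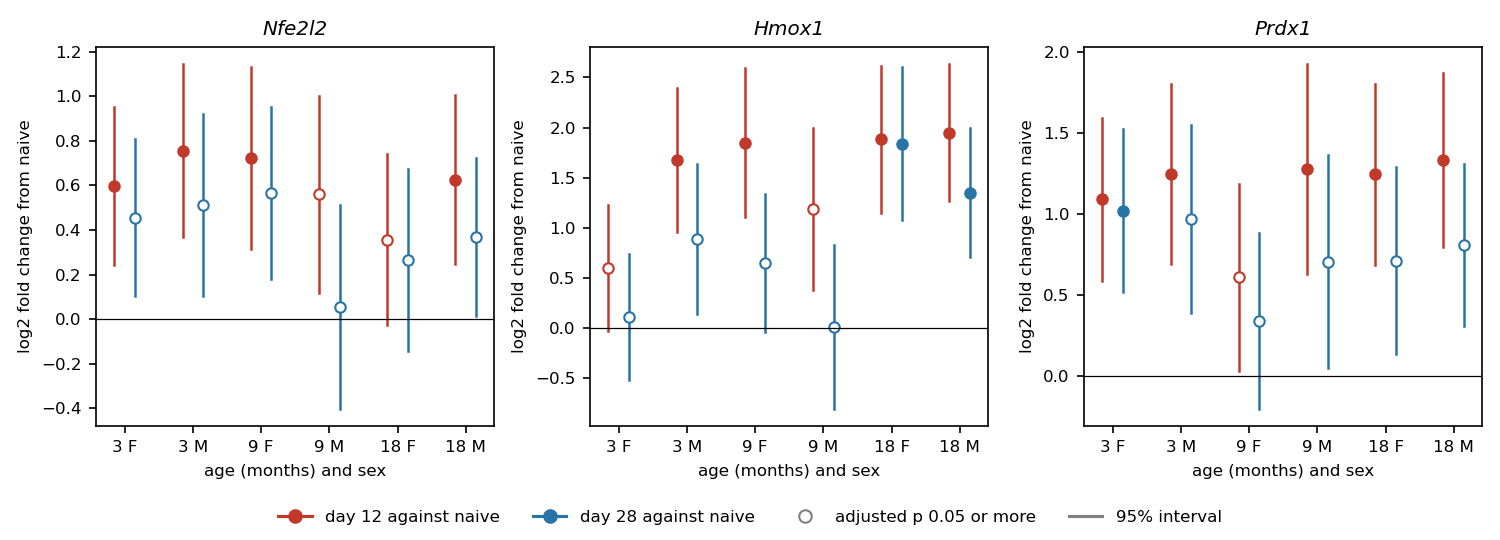
Log2 fold change from naive of Nfe2l2, Hmox1 and Prdx1 at day 12 and day 28 in each of the 6 groups of age (months) and sex, with 95% intervals; filled points passed an adjusted p of 0.05 (edgeR). For Hmox1 the day 28 point is close to 0 in 3-month-old females (0.11) and 9-month-old males (0.01) and at 1.84 in 18-month-old females.

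At day 28, 3 of 60 tests within groups passed. They were Prdx1 in 3-month-old females, at 1.02 (SE 0.26, adjusted p = 0.0358, edgeR), and Hmox1 in 18-month-old females, at 1.84 (SE 0.39, adjusted p = 0.0077, edgeR), and in 18-month-old males, at 1.35 (SE 0.33, adjusted p = 0.0187, edgeR). Of all genes tested, 0.589% were higher in 3-month-old females, 0.368% in 3-month-old males, 1% in 9-month-old females, 0.118% in 9-month-old males, 0.751% in 18-month-old females and 0.876% in 18-month-old males. The 18-month-old male call was lost without 18-month-old male day 28 replicate 4, the eye with both day labels (1.13, adjusted p = 0.114, edgeR), which held the highest Hmox1 of day 28. It was also lost without day 28 replicate 2, naive replicate 1 or naive replicate 4, and the 18-month-old female call was lost without naive replicate 1, the eye least like its group (adjusted p = 0.0991, edgeR), and when only the groups compared were fitted (adjusted p = 0.224, edgeR). In that fit Prdx1 passed in 3-month-old males, at 0.98 (adjusted p = 0.00129, edgeR). Prdx1 in 3-month-old females lost its call without any of 6 of its 8 libraries.

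Over the 6 groups at day 28 against naive, 3 members were higher where 8.9% of all genes were, and 0 were lower where 6.49% were. By edgeR 2 members, Gclc and Slc7a11, were lower at an unadjusted p under 0.05, and by DESeq2 1 member, Gclc, passed. Against day 12, 3 members were lower at day 28 where 10.2% of all genes were, and 0 were higher where 7.89% were, also by DESeq2 and at an unadjusted p under 0.05. In either direction, 3612 of 13584 genes had an unadjusted p under 0.05 at day 28 against naive, and 4018 against day 12 (edgeR).

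Whether age changed the levels was tested within each sex and day, and 0 members passed an adjusted p of 0.1 in any of the 12 comparisons (edgeR). Between 18 and 3 months 9 of 60 member tests had an unadjusted p under 0.05, and DESeq2 called 3, Hmox1 and Srxn1 in naive and Prdx1 in day 12 females. Between 9 and 3 months it was 10 of 60, and DESeq2 called 1, Prdx1 in naive females. For DESeq2 the share of all genes called is not given here, in this or any other comparison. Of 13584 genes, an unadjusted p under 0.05 between 18 and 3 months was reached by 1860 in naive, 1721 in day 12 and 655 in day 28 females. In males it was reached by 437, 545 and 422. Between 9 and 3 months it was reached by 1372, 1490 and 409 in females, and the male numbers are not given here. By edgeR few genes of any kind passed. Between 18 and 3 months it was 0.221% of all genes in naive, 0.346% in day 12 and 0% in day 28 females. In males it was 0.0147%, 0% and 0.00736%. Between 9 and 3 months it was 0.147%, 0.795% and 0% in females and 0% at each day in males. In naive females Hmox1 was 8.28, 17.4 and 14.2 CPM at 18 months against 12.9 to 49.9 CPM at 3 months, a log2 fold change of -1.17 (SE 0.37, adjusted p = 0.168, edgeR). The groups overlapped, and without 18-month-old replicate 2 the value was -1.36 and passed (adjusted p = 0.0825, edgeR). Prdx1 in naive females was 0.90 higher at 9 than at 3 months (SE 0.27, adjusted p = 0.23, edgeR), with 1 of the 9-month-old eyes at 891 CPM, and passed without 9-month-old replicate 2 or 3 (adjusted p = 0.0685 and 0.0599, edgeR). In females at day 12 Slc7a11 was 13.4, 24.5, 9.97 and 2.73 CPM at 18 months and at most 0.604 CPM, or 3 counts, at 3 months. The fitted difference of 4.93 (SE 1.51, adjusted p = 0.145, edgeR) depends on the prior count, since the younger eyes were at the floor. In the same comparison Prdx1 was 0.71 higher (SE 0.26, adjusted p = 0.214, edgeR), at 808 to 964 CPM against 533 to 650 CPM, and Srxn1 stood at 7.65 to 43.8 CPM against 3.02 to 7.45 CPM. For these 3 members, Slc7a11, Prdx1 and Srxn1, every 18-month-old eye lay above every 3-month-old eye, as 2.58% of all genes did. At 18 months replicates 1 and 2 were highest in Slc7a11 and Srxn1 and lowest in Prdx1. Their T cell marker sums were 0 and 13.1 CPM, against 43.9 to 108 CPM at 3 months. Both came from the first collection day. The part of these differences in the age comparison was not tested.

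Males and females did not differ past the test for any member at any day. Among all genes 0.081% passed in naive, 0.0515% at day 12 and 0.0589% at day 28. Of 30 member tests 3 had an unadjusted p under 0.05 (edgeR) and DESeq2 called 0. They were Txnrd1 in naive and day 28 eyes, at -0.51 and -0.45, and Slc7a11 at day 12, at -2.36 for males against females (SE 0.92, adjusted p = 0.772, edgeR). At the unadjusted threshold the share of all genes is not given here.

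The change from naive was compared directly between ages and sexes in 8 interaction tests, and 0 members passed in edgeR or DESeq2, with 6 of 80 at an unadjusted p under 0.05. For that unadjusted threshold the share of all genes is not given here. The share of all genes that passed was 0.133% for the day 12 change between 18 and 3 months, 0.0368% between 9 and 3 months and 0% in the other 6 tests. The day 28 change of Hmox1 was larger at 18 than at 3 months by 1.09 on the log2 scale (SE 0.35, adjusted p = 1, edgeR). Its day 12 change was larger by 0.78 (SE 0.34, adjusted p = 0.381, edgeR). So the calls of Hmox1 at day 28 in 18-month-old mice, and their lack in younger mice, are not shown to differ between ages. For Prdx1 these differences were -0.23 and 0.12, and for Nfe2l2 -0.17 and -0.19, each smaller than its SE.

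Around the members, genes of 9 related lists were read at day 12 with the same test, against the background of 20.1% higher and 15.8% lower. Of 8 regulators of NRF2, 3 were higher and 1 was lower, with a median of 0.27. Maff, a small MAF partner, rose by 2.54 (SE 0.34) from a median of 1.04 to 6.24 CPM. Keap1 rose by 0.68 (SE 0.18) and Nfe2l1, a paralogue of Nfe2l2, by 0.42 (SE 0.17). Btrc, which serves another ubiquitin ligase of NRF2, fell by 0.42 (SE 0.16). Btrc, and below Gsr, Gpx1, Gstm1, Prdx2, Txnrd2, Ncf1, Ncf4, Gabarapl1 and all genes named for day 28, were named after their values were seen, to complete the counts.

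Of 12 glutathione genes 4 were higher and 2 lower, with a median of 0.10. Glrx, which encodes glutaredoxin, rose by 1.94 (SE 0.23), Gsto1, an omega class glutathione transferase, rose by 0.94 (SE 0.12), and Abcc1, an exporter of glutathione conjugates, fell by 0.94 (SE 0.18). The others were Gsr at 0.40, Gpx1 at 0.36 and Gstm1 at -0.91. Of 9 thioredoxin and peroxiredoxin genes 3 were higher and 2 lower, with a median of 0.08. Txn1, thioredoxin itself, rose by 1.85 (SE 0.19) from a median of 165 to 498 CPM, and Prdx5 by 1.39 (SE 0.15), so both moved in the same direction as Prdx1. Txnip, an inhibitor of thioredoxin, fell by 0.90 (SE 0.12). Prdx2 was at 0.75 and Txnrd2, the mitochondrial reductase, at -0.54, both past the test. Prdx4, of the secretory pathway, was the 1 gene of all these lists that passed between 18 and 3 months in day 12 females, at 1.15 (SE 0.22, adjusted p = 0.0222, edgeR). Of 6 genes for NADPH supply 2 were higher and 1 lower: Taldo1 at 0.49 and Pgd at 0.37, of the pentose phosphate pathway, and Idh1, isocitrate dehydrogenase, at -0.35.

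**Figure D5:**
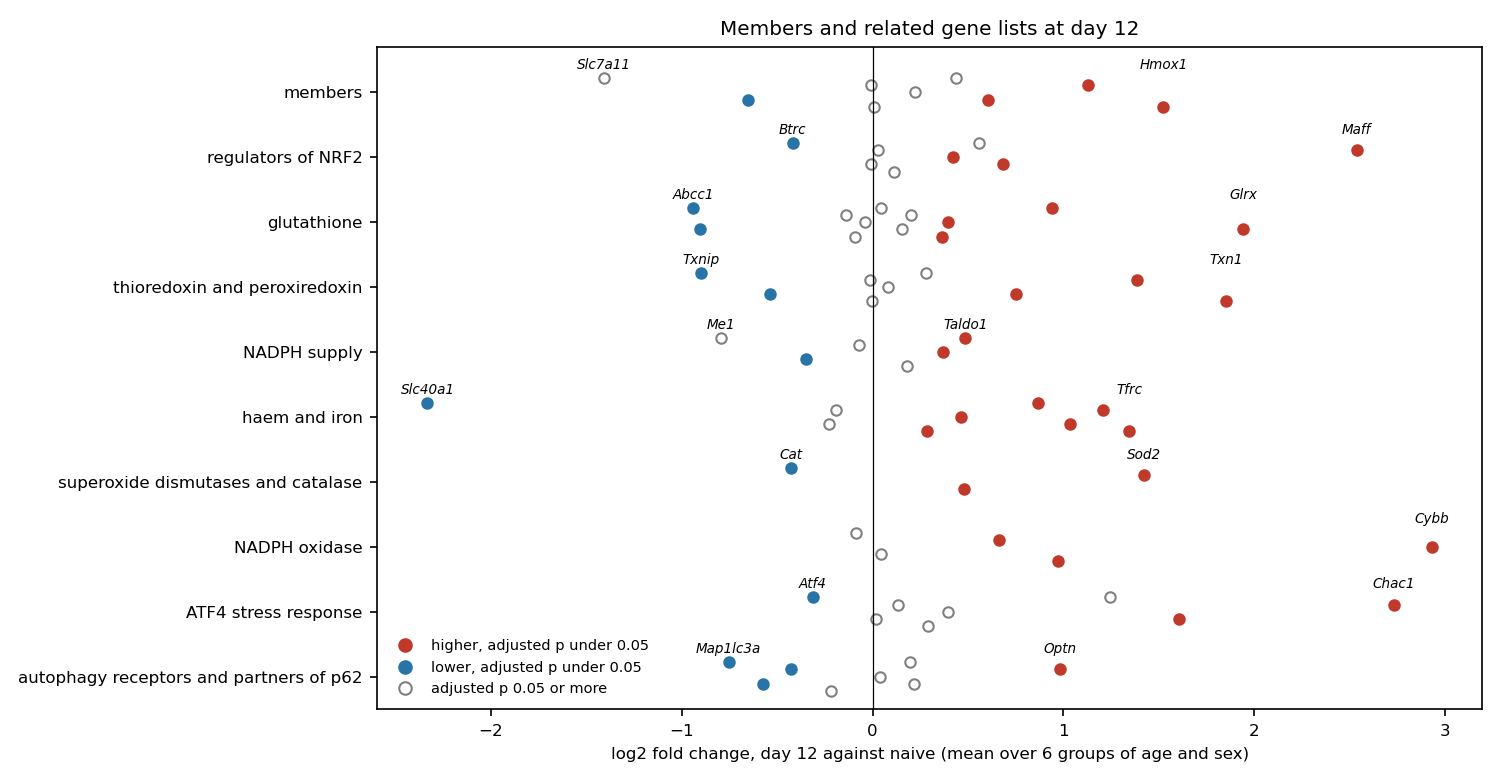
Log2 fold change at day 12 against naive (horizontal axis, mean over 6 groups of age and sex) of 9 members and of the genes of 9 related lists, 1 point per gene, coloured where the adjusted p was under 0.05 (edgeR), with the gene at each end of a list named, for NADPH oxidase at the upper end alone. The widest spread is in haem and iron, from Slc40a1 at -2.33 to Tfrc at 1.35, and the highest point is Cybb at 2.93.

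In the haem and iron list, to which Hmox1 is closest, 6 of 9 genes were higher and 1 was lower, with a median of 0.46. Ftl1, the ferritin light chain, rose by 1.21 (SE 0.14) from a median of 1991 to 4255 CPM, and Tfrc, the transferrin receptor, by 1.35 (SE 0.26). Slc40a1, the iron exporter ferroportin, fell by 2.33 (SE 0.28) from a median of 78.0 to 12.9 CPM, opposite to Hmox1. Of superoxide dismutases and catalase, Sod2, the mitochondrial enzyme, rose by 1.42 (SE 0.14), Sod1 by 0.48 (SE 0.17), and Cat fell by 0.43 (SE 0.16). Of the NADPH oxidase genes, Cybb, the catalytic subunit of the phagocyte oxidase, rose by 2.93 (SE 0.20), Rac2 by 0.97 (SE 0.11) and Cyba by 0.66 (SE 0.14). Ncf1 at 0.05 (SE 0.13) and Ncf4 at -0.09 (SE 0.10) did not pass, so the list did not rise as a whole. Of 8 genes of the ATF4 stress response 2 were higher and 1 lower, with Chac1 at 2.73 (SE 0.85) and Asns at 1.61 (SE 0.66), both near the limit of detection in naive eyes with medians of 0 and 0.272 CPM, and Atf4 at -0.31 (SE 0.10). Of 8 autophagy receptors and partners of p62, Optn rose by 0.98 (SE 0.24), Map1lc3a fell by 0.75 (SE 0.13), Tfeb fell by 0.58 (SE 0.23) and Gabarapl1 fell by 0.43 (SE 0.17).

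At day 28 the lists were read against 8.9% of all genes higher and 6.49% lower, a smaller share than at day 12. Of the regulators of NRF2 only Maff was higher, at 2.58 (SE 0.34). Of the glutathione genes 4 of 12 were higher, Mgst1 at 1.41, Gsto1 at 0.83, Gpx1 at 0.39 and Gpx4 at 0.35, and Abcc1 was lower at -0.71. Of the thioredoxin genes Txn1, Prdx5 and Prdx2 were higher, at 1.02, 0.50 and 0.31, and Txnip and Txnrd2 lower, at -0.68 and -0.45. In haem and iron Tfrc was at 0.94, Ftl1 at 0.91, Fth1 at 0.83 and Slc40a1 at -1.47. Sod2 at 0.55, Sod1 at 0.52, Cat at -0.49, Cybb at 1.42, Cyba at 0.53 and G6pdx, the first enzyme of the pentose phosphate pathway, at -0.36 also passed, and in the ATF4 and autophagy lists 0 of 16 genes did by edgeR. Median levels of Txn1 at 284 CPM, Glrx at 51.5 CPM and Cybb at 208 CPM lay between naive and day 12 at day 28, as those of Hmox1, Prdx1 and Nfe2l2 did. Not all named genes did so. The median of Maff was 6.24 CPM at day 12 and 6.37 CPM at day 28, and that of Sod1 49.2 and 51.9 CPM.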

How the data were processed

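RNA from sorted retinal microglia was measured in 62 libraries. As the study's methods and the submitters' processing notes state, the authors mapped reads with STAR (2.7.8a) to mm10, counted them per refGene gene with featureCounts and deposited 2 tables of raw counts, one of them adjusted for the 2 collection days with ComBat_seq in R (4.2.2), which can change counts of low genes. The adjusted whole-number counts were used here. CPM is the count divided by the total of the library. Groups came from sample titles, and each library was a single eye. The contralateral eyes went to flow cytometry or histology, but the labels number no animals, so p-values measure the spread between libraries.

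Genes were filtered with filterByExpr (13584 of 25239 kept) and tested with edgeR (4.0.16, R 4.3.3): TMM scaling, 1 mean per group of age, sex and day in 1 fit, robust quasi-likelihood F tests, 38 contrasts, and Benjamini-Hochberg adjustment over all genes tested. Day contrasts are means over 6 groups of age and sex, called at an adjusted p under 0.05, and age, sex and interaction contrasts at 0.1. SEs were derived from the log2 fold change and F, and 95% intervals span 1.96 SE. The fit was tested on simulated data.

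The libraries held 1468478 to 9836173 counts, and the floor of 3 counts covers counting error only, whereas the 95% intervals include the spread between libraries. The depth per gene limits Nqo1, Slc7a11 and Srxn1. Replicate numbers did not pair libraries: deviations from group means correlated at -0.0114 on average for the same number and 0.00407 for others.

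Alternatives were DESeq2 (1.42.0) and its size factors, no filter, unadjusted counts with or without the collection day, each collection day alone, a replicate block, other placings of 3 doubted libraries, fits of the groups compared only, glmTreat, a fold change limit and leaving out each library. Leaving out 2 doubted or 3 high libraries together was chosen after seeing the data. One gene of the NADPH oxidase list is not reported here. Members and lists were chosen with earlier results of these data known. Named besides the members were, per related list, the 3 genes with the largest day 12 change among those past the test, the 1 with the largest change between 18 and 3 months in day 12 females, and the genes most correlated with each member. Gene positions and exon lengths were taken from GENCODE M21 (GRCm38) and promoters from RefSeq (GRCm38.p6).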

Additional observations from a re-analysis of the deposited data

Results flagged for a closer look

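In groups of 4 libraries, 89 sets of values of a member were examined for 1 library far from the others by Dixon's test, and 10 stood out. Chance flags about 1 of 20 if values are normally spread. That rate does not hold where all other eyes were at 0, since any count was then flagged. High values were Slc7a11 in 3-month-old female naive replicate 1 (2.15 CPM, next 0.479 CPM) and 9-month-old female day 28 replicate 4 (2.55 CPM, others at 0), Nqo1 in 3-month-old female naive replicate 3 (1.68 CPM, others at 0), and, from 2 and 3 counts, Slc7a11 in 9-month-old male day 12 replicate 4 (0.414 CPM) and Nqo1 in 18-month-old male naive replicate 1 (0.766 CPM). Gclm stood at 21.8 CPM in 3-month-old female day 28 replicate 3, where the next eye held 11.1 CPM. Srxn1 stood at 20.2 CPM in 9-month-old female day 28 replicate 2, where the next held 5.08 CPM. Sqstm1 stood at 268 CPM in 3-month-old female day 12 replicate 3 (next 118 CPM) and at 304 CPM in 3-month-old female naive replicate 4 (next 129 CPM). Txnrd1 was low at 15.1 CPM in 3-month-old female naive replicate 1, where the next held 23.9 CPM. None of the 10 was Nfe2l2, Hmox1, Prdx1 or Gclc, and no interaction test of a member passed.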

How the results depend on the processing

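Hmox1, Prdx1, Nfe2l2 and Gclc kept direction and call at day 12 against naive in all 13 alternatives with no minimum fold, with log2 fold changes of 1.34 to 1.77, 1 to 1.34, 0.593 to 0.733 and -0.741 to -0.569, and without any single library. Depth limits Nqo1, Slc7a11 and Srxn1.

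At day 12 the count of members higher was 1 (Hmox1) by glmTreat with a minimum log2 change of 1. The count lower was 2 with no filter, 2 without the 3 libraries high in Sqstm1, 1 to 2 when single libraries were left out (Gclc, joined by Slc7a11), and 0 by glmTreat or with a log2 fold change over 1. At day 28 the count higher was 1 (Hmox1) within the first collection day and 0 by glmTreat or over 1. The count lower, of Gclc or Slc7a11, was 1 with no filter, with the library of both day labels at day 12 or left out, with the library against its sex label kept, within the second collection day, without 2 doubted libraries and by DESeq2, and 0 to 1 when single libraries were left out. From day 12 to day 28 the count lower was 1 within the first collection day and 0 by glmTreat or over 1, and Nfe2l2 lost its call with no filter (-0.235, adjusted p = 0.224, edgeR). Within groups of age and sex, glmTreat left 1 of 13 calls at day 12. Of the 3 at day 28, 1 was left with uncorrected counts without the collection day and 0 by glmTreat, and there were 5 with no filter and 5 by DESeq2. Between 18 and 3 months the count was 4 with no filter, 3 by DESeq2, 1 in fits of the compared groups only and 0 to 1 without single libraries. Between 9 and 3 months it was 1 with no filter, 1 by DESeq2 and 0 to 1 without single libraries. With no filter the 4 calls of Nfe2l2 within groups at day 12 were lost. The cause was not tested.

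Reversed values all belonged to members that did not pass. Gclm at day 12 was 0.0018 by DESeq2 and with its size factors, 0.00721 with no filter, 0.0431 from uncorrected counts with a collection day term and 0.128 without it, 0.00252 without the library of both day labels, 0.277 within the first collection day, 0.035 without 2 doubted libraries and -0.0801 to 0.111 without single libraries, and at day 28 0.000765 within the first day. Sqstm1 at day 12 was -0.186 within the second day, -0.0845 without the 3 libraries high in it and -0.0962 to 0.208 without single libraries, and at day 28 0.0584 within the second day and -0.252 to 0.0513 without single libraries. Txnrd1 at day 28 was 0.00185 within the second day, 0.024 without those 3 and -0.126 to 0.0268 without single libraries. From day 12 to day 28, Slc7a11 was -0.279 and -0.275 with uncorrected counts, -0.00968 with the library of both day labels at day 12, -0.0235 with the library against its sex label, -0.293 and -0.833 within the collection days and -0.741 to 0.452 without single libraries. Srxn1 was 0.306 within the second day, 0.0951 without those 3 and -0.309 to 0.0152 without single libraries, and Sqstm1 0.244 and 0.0826.

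Replicate numbers did not pair the libraries. A replicate block turned Slc7a11 from day 12 to day 28 to -0.000963 and moved no count of calls: the 3 members higher and 1 lower at day 12, the 3 higher at day 28, and the 13 and 3 calls within groups stood.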
